A study of Homo sapiens with 16 samples.

Results

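COLCA1, POU2AF3, POU2AF2 and POU2F3 were followed across 6 SW480 lines. SW480 is an established cell line that was derived from human colon adenocarcinoma. They are 4 of the 66023 genes in the counts, matched by their GENCODE symbols. COLCA1 was chosen by its measured RPM, which was low in both Ajuba knockdown lines and in the Control line. Its differences between lines are therefore given as a description and were not tested. The other genes were added as its neighbours on chromosome 11 and as partners in the same transcription factor system. The lines were Parental, which is unmodified SW480 (n = 2), shScrambled, with a lentiviral shRNA against no mammalian gene (n = 2), shAjuba1, with an shRNA to the coding region of AJUBA (n = 3), and shAjuba2, with an shRNA to a non-coding region of the transcript (n = 3). Ajuba OE carried a lentiviral Ajuba construct driven by a CMV promoter with FLAG and HA tags (n = 3), and Control carried the same construct after clonal excision of the Ajuba sequence (n = 3). All lines other than Parental were selected with puromycin as stable lines. Each construct is represented by a single line, so a property of the line and an effect of its construct cannot be told apart. The study calls its replicates technical replicates, so p-values measure the spread between these samples only.

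POU2F3 encodes a POU-domain transcription factor that binds the octamer motif and is required for tuft cells, the chemosensory cells of the gut and airway epithelium. POU2AF2 and POU2AF3 encode OCA-T1 and OCA-T2, short coactivators that join POU2F3 on DNA in tuft cells. POU2AF1 encodes OCA-B, the related coactivator of the factors POU2F1 and POU2F2 in B cells, and COLCA1 is a long non-coding RNA gene in a region linked to the risk of colorectal cancer.

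In hg38, POU2AF2 (ENSG00000150750) lies on chromosome 11 from 111245725 to 111286401 on the plus strand. COLCA1 (ENSG00000196167) lies from 111290787 to 111305498 on the minus strand, 4386 bp beyond the end of POU2AF2. POU2AF3 (ENSG00000214290) lies from 111298546 to 111308735 on the plus strand, so that its body overlaps that of COLCA1 by 6953 bp. The exons of these opposite genes share 445 bases, which is 4.84% of the exon length of COLCA1 and 21.5% of that of POU2AF3. The libraries were stranded, but the strand option of the counting is not given in the sources used here. Reads from the shared bases may count for either gene or for neither. The 3 genes span 63.0 kb. POU2AF1 (ENSG00000110777), from 111352255 to 111455630 on the minus strand, is the next gene to the right with a mean of at least 1 in RPM, the count divided by the sample total and scaled by 1000000. POU2F3 (ENSG00000137709) lies 8.93 Mb farther on the same chromosome, from 120236640 to 120319945 on the plus strand.

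The start regions are shown because COLCA1 and POU2AF3 have a pair of starts that face away from each other. Their outermost annotated starts face towards each other, so that the gene bodies overlap. RefSeq start windows of 300 bases, mostly upstream of a start, were read for COLCA1 (5 windows) and POU2AF3 (3 windows) from the GRCh38.p14 table. The COLCA1 window farthest upstream is chr11:111304999-111305298 on the minus strand. It holds the CCAAT box (CCAAT or its reverse complement ATTGG) on both strands, in capitals:
COLCA1 upstream start: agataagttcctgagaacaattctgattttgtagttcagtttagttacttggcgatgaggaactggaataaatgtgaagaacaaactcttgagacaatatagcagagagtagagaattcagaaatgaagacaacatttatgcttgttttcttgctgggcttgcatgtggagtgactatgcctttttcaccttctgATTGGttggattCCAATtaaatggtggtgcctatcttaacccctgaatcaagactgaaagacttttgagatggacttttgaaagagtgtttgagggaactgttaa
The innermost COLCA1 start, at 111299209 on the minus strand, lies 100 bp from a POU2AF3 start at 111299309 on the plus strand. The window of that COLCA1 start, chr11:111299160-111299459, shares 199 bases with the POU2AF3 window, shown in capitals:
COLCA1 start beside POU2AF3: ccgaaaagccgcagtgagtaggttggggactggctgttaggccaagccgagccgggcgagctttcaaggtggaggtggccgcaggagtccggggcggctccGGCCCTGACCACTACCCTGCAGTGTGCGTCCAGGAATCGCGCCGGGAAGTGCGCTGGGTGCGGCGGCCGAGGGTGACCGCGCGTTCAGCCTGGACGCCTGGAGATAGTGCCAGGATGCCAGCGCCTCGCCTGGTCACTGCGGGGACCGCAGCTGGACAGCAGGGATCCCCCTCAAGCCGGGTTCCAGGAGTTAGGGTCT
The POU2AF3 window chr11:111298296-111298595 on the plus strand holds a TATA box (TATAAA), in capitals:
POU2AF3 upstream start: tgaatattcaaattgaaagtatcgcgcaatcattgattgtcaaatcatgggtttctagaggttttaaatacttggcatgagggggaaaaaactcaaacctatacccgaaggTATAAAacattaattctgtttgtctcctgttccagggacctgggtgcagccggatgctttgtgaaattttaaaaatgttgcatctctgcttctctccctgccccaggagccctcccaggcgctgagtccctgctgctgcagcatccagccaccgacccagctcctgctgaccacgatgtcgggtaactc
The octamer ATGCAAAT, searched on both strands, was in 0 of these 8 windows and in 1.77% of 35116 start windows in the table. The CCAAT box was in 3 of the 8 windows, of which 2 overlap and hold the same box, and in 34.6% of all windows. The TATA box was in 2 of the 8 windows and in 11.5% of all windows.

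Total counts were between 30132396 and 69684675 per sample. Called genes are those with an adjusted p under 0.05 by edgeR's quasi-likelihood test, by its Benjamini-Hochberg adjustment over all genes tested, and they made up 38.4% of all genes tested in shAjuba1 against shScrambled, 7.63% in shAjuba2 against shScrambled and 5.43% in Ajuba OE against Control. The share was 0.37% in Control against Parental, 30.7% in Parental against shScrambled and 19.6% between shAjuba1 and shAjuba2. AJUBA, the targeted gene, was at 83.4 and 81.6 RPM in shScrambled, at 49.6, 47.3 and 53.5 in shAjuba1 and at 60.3, 68.6 and 57.1 in shAjuba2. It was at 88.8 and 91.6 RPM in Parental, at 89.6, 100.5 and 89.4 in Control and at 549.7, 462 and 566 in Ajuba OE. Every knockdown sample was below both shScrambled samples, and Ajuba OE samples were all higher than those of Control. On the log2 scale AJUBA differed from shScrambled by -0.73 in shAjuba1 (SE 0.0834, adjusted p = 2.19e-05) and -0.46 in shAjuba2 (SE 0.131, adjusted p = 0.0773, both by edgeR), of which the second was not past the threshold. It was past it without replicate 2 of shAjuba2, with all 16 samples in the fit and with the replicate block. In Ajuba OE it was 2.56 (SE 0.115, adjusted p = 7.70e-05 by edgeR), and reads of the construct were not separated from those of the gene. Replicate 2 of shAjuba2 stood apart in that line, where leaving it out raised the genes called against shScrambled from 1713 to 4983. Leaving out replicate 2 of Control likewise raised the genes called against Parental from 80 to 985. The deviations of replicate 2 of Ajuba OE and of Control from their line means correlated at 0.50. As examples, replicate 2 was the highest sample for ITPR3 in shAjuba2, Control and Ajuba OE, at 297, 272 and 295 RPM. For EPCAM, an epithelial marker, it was the lowest sample in each of these lines, at 48.3, 112.7 and 175.1 RPM. Other genes were not counted in this way, and a shift of replicate 2 shared by these lines was not tested. The main fit of these lines did not pair the samples.

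The samples were checked against markers of cell types. The 12 markers of colon epithelium summed to between 2931 and 7033 RPM. Of these, the differentiation markers KRT20, LGALS4 and CDX1 had at most 22, 53 and 4 counts in a sample, and CDX1 had 0 counts in both shScrambled samples. The 6 tuft cell markers, POU2F3 included, summed to between 7.10 and 16.3 RPM, and GFI1B among them had at most 5 counts in a sample. The tuft marker sum was 12.04 to 16.3 RPM in shScrambled, and 7.22 to 8.18 in Parental, 7.10 to 8.61 in shAjuba1, 8.31 to 10.8 in shAjuba2, 8.27 to 12.8 in Control and 7.27 to 10.4 in Ajuba OE. In shScrambled it was mostly AVIL, at 9.20 RPM, and SH2D6, at 4.15 RPM, whereas SH2D7 and GFI1B had their lowest mean there and POU2F3 and TRPM5 were higher in other lines. The 7 leukocyte and mast cell markers summed to at most 3.00 RPM, and CPA3 was at 0 in all samples. The 3 endothelial markers summed to 5.05 to 5.39 RPM in shScrambled and to between 2.24 and 3.06 RPM in the other lines, with CDH5 at 0 in 3 of the lines. In shScrambled the sum was mostly VWF, at 5.13 RPM, whereas PECAM1 had its lowest mean there, at 0.0771 RPM. The 5 fibroblast markers summed to 24.9 to 37.6 RPM in shAjuba2, 6.21 to 10.4 in Ajuba OE and between 15.5 and 24.5 in the other lines, with DCN at 0 in 5 of the lines. In shAjuba2 the sum was mostly COL1A1, at 22.1 RPM, and PDGFRB, at 9.68 RPM. LUM was at 0 in shAjuba2 and in Ajuba OE and had its highest mean in shScrambled, at 0.307 RPM. The part of these markers in the results below was not tested. In bulk RNA, fewer cells of a type and less RNA per cell cannot be told apart.

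COLCA1 was abundant in Parental and shScrambled and low in the other 4 lines. Its counts were 1682 and 2464 in shScrambled, or 46.1 and 49.0 RPM, and 993 and 1011 in Parental, or 24.8 and 18.9 RPM. The shAjuba1 samples had 3.98, 4.71 and 3.89 RPM, from 141 to 190 counts. The shAjuba2 samples had 1.46, 0.969 and 0.720 RPM, from 35 to 68 counts. The Control samples had 1.60, 1.90 and 1.87 RPM, and the Ajuba OE samples had 1.21, 1.65 and 1.63 RPM. Every sample of shScrambled was above every sample of Parental, and these were above shAjuba1, which was above Control. The ranges of Control, Ajuba OE and shAjuba2 overlapped in turn.

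**Figure D1:**
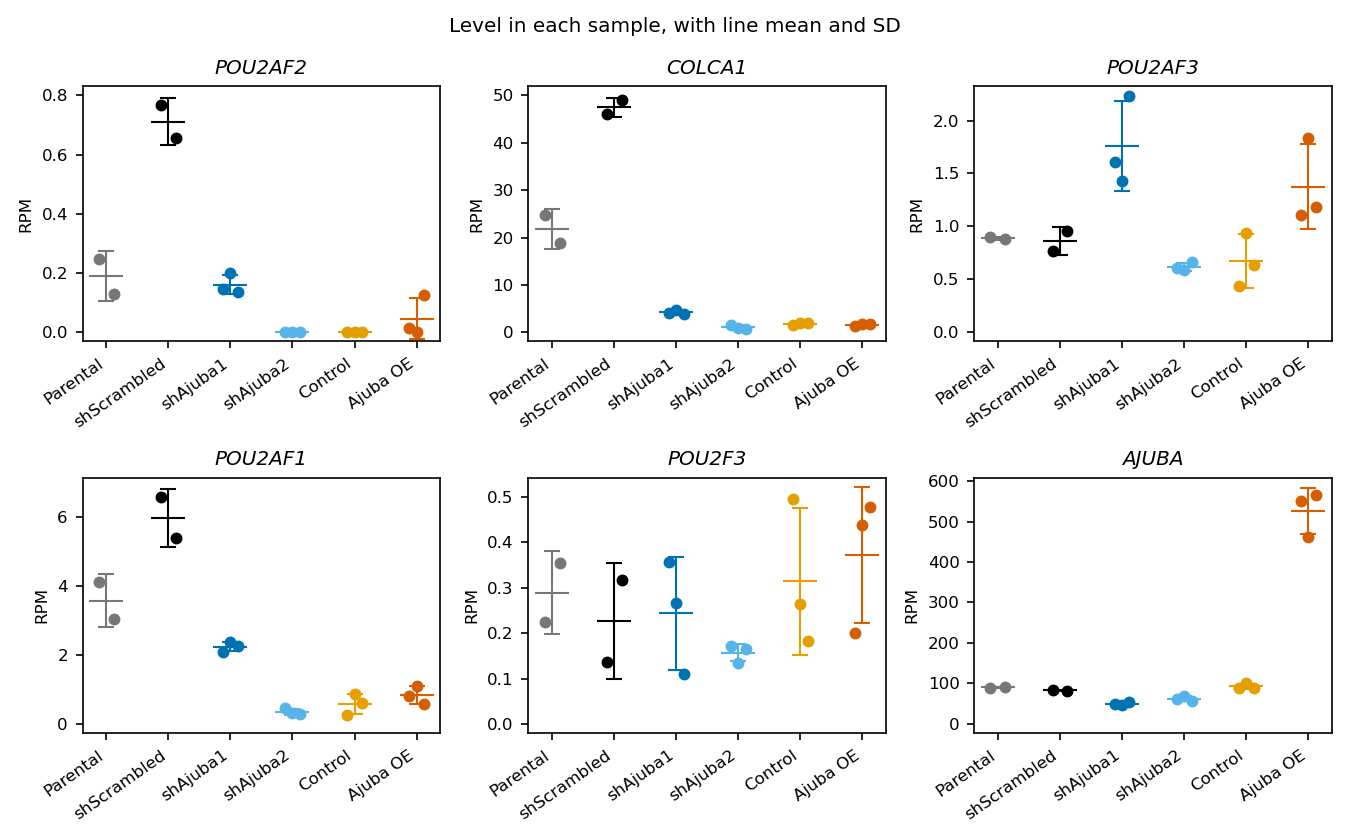
RPM of 6 genes in each of the 16 samples by line, with dots for samples, horizontal bars for the line mean and error bars for SD; each panel has its own linear scale. COLCA1 was highest in shScrambled, at 47.6 RPM on average, and POU2AF1 and POU2AF2 were highest there as well, whereas POU2AF3 was highest in shAjuba1 and POU2F3 was at most at 0.495 RPM in any sample.

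As line means, COLCA1 in shScrambled was at 47.6 ± 2.01 RPM (SD, n = 2), and Parental was at 21.8 ± 4.17 RPM (SD, n = 2). It was at 4.19 ± 0.451 RPM (SD, n = 3) in shAjuba1 and, in shAjuba2, 1.05 ± 0.378 (SD, n = 3), which is 8.82% and 2.21% of the shScrambled level. Control, at 1.79 ± 0.162 RPM (SD, n = 3), had 8.20% of the Parental level, and Ajuba OE was at 1.50 ± 0.251 RPM (SD, n = 3). The log2 fold change was -3.53 (SE 0.111) in shAjuba1 against shScrambled, -5.55 (SE 0.245) in shAjuba2 against shScrambled and -3.59 (SE 0.163) in Control against Parental. These are the values that chose the gene, and the knockdown comparisons share the shScrambled samples. The unmodified line was itself lower than shScrambled, by a log2 fold change of -1.13 (SE 0.0993), and the knockdown lines differed by 2.04 (SE 0.242, shAjuba1 minus shAjuba2). Between Ajuba OE and Control, where AJUBA differed most, the log2 fold change of COLCA1 was -0.21 (SE 0.200), about its own error.

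POU2AF2, the gene for OCA-T1, was at low counts and had its highest level in the same line as COLCA1. It had 28 and 33 counts in shScrambled, or 0.768 and 0.656 RPM, and 10 and 7 counts in Parental, or 0.249 and 0.131 RPM. The shAjuba1 samples had 7, 6 and 5 counts, or 0.147, 0.199 and 0.138 RPM. All 3 shAjuba2 samples and all 3 Control samples had 0 counts, where 3 counts over the line's samples would be 0.0215 and 0.0236 RPM, and Ajuba OE had 1, 0 and 5 counts. Both shScrambled samples were above every other sample, and shAjuba1 and Parental overlapped.

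The mean POU2AF2 level in shScrambled, 0.712 RPM, was 4.42-fold that of shAjuba1 and at least 33.1-fold that of shAjuba2, with a floor of 3 counts over the line. Parental was at least 8.06-fold higher than Control by the same floor. The log2 fold change in shAjuba1 against shScrambled was -2.15 (SE 0.349), given without a test because that contrast entered the choice of genes. In Parental against shScrambled it was -1.93 (SE 0.398), lower in both Parental samples. POU2AF2 passed the count filter there only through shScrambled, the line in which it was high, so no p is given. POU2AF2 did not reach the count filter in Ajuba OE against Control, in Control against Parental or between the knockdown lines.

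POU2AF3, the gene for OCA-T2, overlaps COLCA1 but had another order of lines. It was at 1.61, 1.43 and 2.24 RPM in shAjuba1 and at 1.105, 1.83 and 1.18 RPM in Ajuba OE. Parental had 0.898 and 0.877 RPM, and shScrambled had 0.768 and 0.954 RPM. The shAjuba2 samples had 0.602, 0.586 and 0.659 RPM, and the Control samples had 0.437, 0.938 and 0.638 RPM. The shAjuba1 and Ajuba OE samples overlapped with each other and were above every sample of the other 4 lines, and counts were between 15 and 88 per sample.

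POU2AF3 was higher in shAjuba1 than in shAjuba2, with means of 1.76 ± 0.424 RPM (SD, n = 3) and 0.615 ± 0.0383 RPM (SD, n = 3) and no overlap. The log2 fold change was 1.56 (SE 0.227, adjusted p = 0.00149 by edgeR), in a comparison where 19.6% of all genes tested were called. It was past the threshold in every alternative run, with adjusted p between 5.61e-07 and 0.0110. In Ajuba OE against Control the log2 fold change was 1.07 (SE 0.334, adjusted p = 0.132 by edgeR). This missed the threshold, although the samples did not overlap. It passed there with every gene of at least 1 count, with DESeq2, with all 16 samples and with the replicate block, and the adjusted p ranged from 0.00376 to 0.348 over all alternatives. In Parental against shScrambled it was 0.03 (SE 0.271, adjusted p = 0.946 by edgeR). Against shScrambled, without a test, it was 1.00 (SE 0.236) in shAjuba1 and -0.54 (SE 0.246) in shAjuba2, and against Parental it was -0.36 (SE 0.315) in Control.

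Per exon length, the balance of the overlapping genes differed between lines. In shScrambled, COLCA1 was at 5.18 RPKM (RPM per kilobase of exon) and POU2AF3 at 0.416 RPKM, a ratio of 12.4, and in Parental the ratio was 5.53. The ratio was 0.537 in shAjuba1 and 0.384 in shAjuba2, while Control had 0.600 and Ajuba OE 0.245. COLCA1 was thus the higher of the pair in Parental and shScrambled and the lower in the other lines. Exon lengths came from GENCODE and not from the annotation used for counting.

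POU2F3, the factor that the OCA-T proteins serve, was at few counts in every line. Counts were between 4 and 21 per sample. It was at 0.137 and 0.318 RPM in shScrambled, at 0.224 and 0.355 in Parental and at 0.356, 0.265 and 0.110 in shAjuba1. It was at 0.172, 0.135 and 0.165 RPM in shAjuba2, at 0.495, 0.265 and 0.182 in Control and at 0.201, 0.438 and 0.478 in Ajuba OE. Each line overlapped with its neighbour in the order of means, and the shAjuba2 samples were below every sample of Parental, Control and Ajuba OE. The log2 fold change was 0.30 in Ajuba OE against Control (SE 0.489, adjusted p = 0.806 by edgeR). In Parental against shScrambled it was 0.31 (SE 0.466). POU2F3 passed the count filter there only through Parental, where it was higher, so no p is given. Without a test, the log2 fold change was 0.06 (SE 0.522) in shAjuba1 against shScrambled and 0.04 (SE 0.481) in Control against Parental. With errors of this size, small differences of POU2F3 were not detectable at this depth. The expressed genes on either side of POU2F3 were OAF, at 12.4 to 25.2 RPM by line, and TLCD5, at 15.4 to 23.1 RPM. OAF rose in shAjuba1 against shScrambled by 0.68 (SE 0.0979, adjusted p = 0.000152 by edgeR) and in Ajuba OE against Control by 0.44 (SE 0.0981, adjusted p = 0.0462 by edgeR). TLCD5 fell in shAjuba1 against shScrambled by 0.40 (SE 0.0980, adjusted p = 0.00635 by edgeR) and in Parental against shScrambled by 0.43 (SE 0.0942, adjusted p = 0.00116 by edgeR).

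Among the other octamer factors, POU2AF1 had the order of COLCA1 at the top and was low in the same lines. It was at 6.56 and 5.37 RPM in shScrambled, 4.11 and 3.02 in Parental and 2.09, 2.36 and 2.26 in shAjuba1. It was at 0.451, 0.315 and 0.288 RPM in shAjuba2, 0.262, 0.857 and 0.615 in Control and 0.804, 1.104 and 0.578 in Ajuba OE. The samples of shScrambled, Parental and shAjuba1 were in separate ranges, each above the other 3 lines.

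POU2AF1 fell in both knockdown lines, with a log2 fold change of -1.43 in shAjuba1 (SE 0.149, adjusted p = 1.11e-05 by edgeR) and -4.12 in shAjuba2 (SE 0.237, adjusted p = 4.17e-04 by edgeR). The share of all genes called was 38.4% in shAjuba1 and 7.63% in shAjuba2 against shScrambled. It also fell in Control against Parental, by 2.55 on the log2 scale (SE 0.348, adjusted p = 0.0420 by edgeR), where 0.37% of all genes were called. That call was lost without replicate 1 or replicate 2 of Parental or replicate 3 of Control, with adjusted p up to 0.327. It was lower in Parental than in shScrambled, with -0.74 (SE 0.166, adjusted p = 0.00151 by edgeR), a call that was lost with all 16 samples in the fit and without replicate 1 of shScrambled. The direct difference of the knockdown lines was 2.71 (SE 0.224, adjusted p = 7.97e-05 by edgeR). In Ajuba OE against Control it was 0.55 (SE 0.411, adjusted p = 0.551 by edgeR), not past the threshold, where 5.43% of all genes were called.

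POU2F1, the widely expressed Oct-1, was at 78.2 to 104.5 RPM as line means. It fell in shAjuba1 against shScrambled by 0.38 on the log2 scale (SE 0.0852, adjusted p = 0.00347 by edgeR), and was at -0.35 (SE 0.115, adjusted p = 0.109 by edgeR) in shAjuba2. POU2F2, the lymphoid Oct-2, was at 1.59 to 3.48 RPM and rose in shAjuba1 by 0.78 (SE 0.176, adjusted p = 0.00388 by edgeR). In shAjuba2 it was at 0.56 (SE 0.333, adjusted p = 0.331 by edgeR). In Ajuba OE against Control 0 of the 3 octamer genes passed edgeR's threshold, with 0 at an unadjusted p under 0.05 and 0 by DESeq2.

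Around the locus, 24 other annotated genes within 500 kb of COLCA1 were in the counts, and 4 of them had a mean of at least 1 RPM. In shAjuba1 against shScrambled 6 were tested. SIK2 and PPP2R1B were called higher and POU2AF1 lower, beside 18.2% and 20.2% of all genes tested. BTG4, an antiproliferative gene of the germ line, was at 0.629 RPM against 0.138 RPM, with a log2 fold change of 2.08 (SE 0.566). It passed the count filter only through shAjuba1, where it was high, so no p is given and its call is not counted here. SIK2, a salt-inducible kinase, rose by 0.48 (SE 0.0779, adjusted p = 3.69e-04 by edgeR), and PPP2R1B, a scaffold subunit of the phosphatase PP2A, rose by 0.41 (SE 0.0900, adjusted p = 0.00329 by edgeR), a call that was lost without replicate 2 of shScrambled. The median log2 fold change of the 6 genes was 0.24, beside -0.01 over all genes tested.

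In shAjuba2 against shScrambled 7 were tested, and POU2AF1 and PPP2R1B fell, beside 4.44% of all genes tested, the latter by 0.61 (SE 0.119, adjusted p = 0.0254 by edgeR). The call of PPP2R1B was lost without replicate 1 or 2 of shScrambled and without replicate 1 of shAjuba2. In Ajuba OE against Control 6 were tested, and only BTG4 passed the threshold, with a log2 fold change of -1.70 (SE 0.346). It passed the filter only through Control, where it was high, so its call is not set beside the share of all genes. That call was also lost in 5 of the 6 fits that left out a sample. In Parental against shScrambled 6 were tested, and POU2AF1 fell, beside 15.0% of all genes tested. BTG4 had a log2 fold change of 2.33 (SE 0.409) there. It passed the filter only through Parental, where it was high, and is not counted. In Control against Parental POU2AF1 was the 1 gene of 7 called, beside 0.37% of all genes tested. Between the knockdown lines POU2AF1, PPP2R1B and SIK2 were higher in shAjuba1, by 2.71, 1.03 and 0.59, 3 of 7 genes beside 9.47% of all genes tested.

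**Figure D2:**
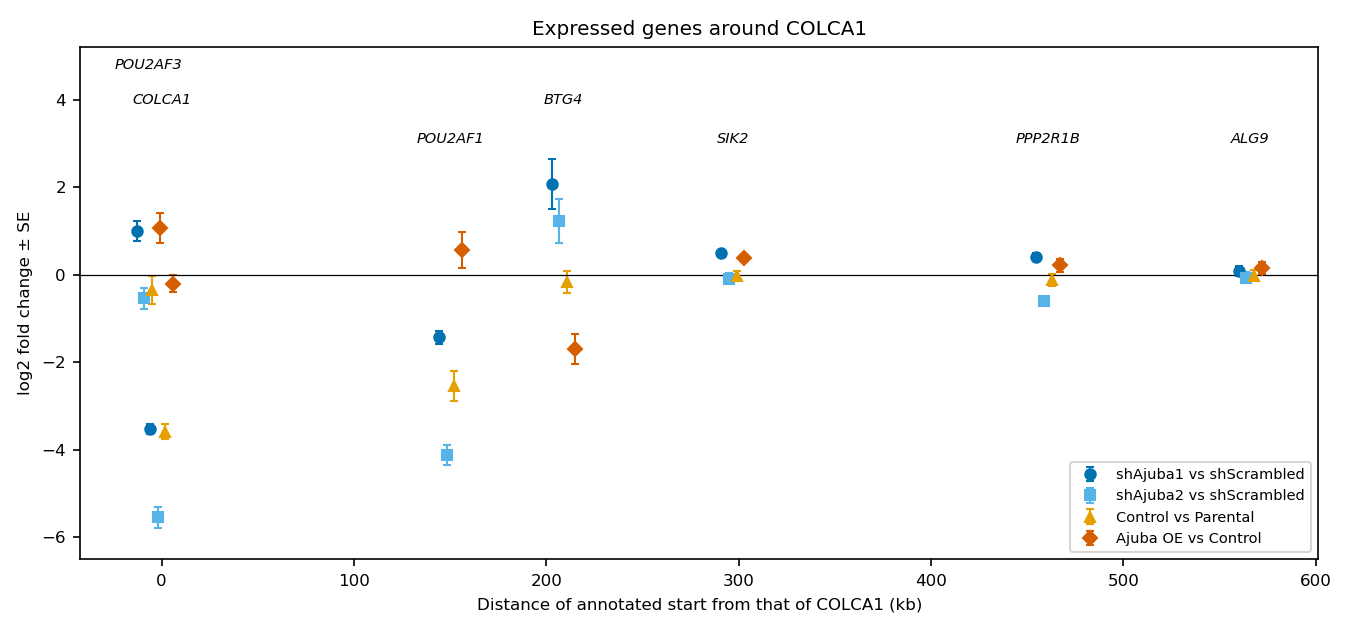
Log2 fold change with SE of genes around COLCA1 that passed the count filter, against the distance of their annotated start from that of COLCA1 in kb. COLCA1 is shown without a test, as is POU2AF3 other than in Ajuba OE against Control. The 4 comparisons are spread sideways by a few kb for visibility, and POU2AF2 is left out because 2 of the lines had no counts. COLCA1 and POU2AF1 were lower in 3 of the comparisons, at -3.53 and -1.43 in shAjuba1, BTG4 was at 2.08 in shAjuba1 and -1.70 in Ajuba OE, and SIK2, PPP2R1B and ALG9 were nearer to 0 than these in shAjuba1.

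On the other side, the nearest gene with at least 1 RPM was FDX1, encoding the electron carrier ferredoxin, which ends 825903 bp from COLCA1. It was at 14.6 to 19.3 RPM as line means. Its log2 fold change was -0.29 in shAjuba1 (SE 0.112, adjusted p = 0.0598 by edgeR) and -0.38 in shAjuba2 (SE 0.254, adjusted p = 0.392 by edgeR), and it passed the threshold in none of the 6 comparisons by that test.

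Over the 16 samples, log2 RPM of COLCA1 had a Pearson r of 0.86 with POU2AF2 and 0.92 with POU2AF1. It had 0.12 with POU2AF3, 0.03 with POU2F3 and -0.24 with AJUBA. Over the 6 line means COLCA1 had an r of 0.92 with POU2AF2, 0.95 with POU2AF1, 0.07 with POU2AF3, 0.003 with POU2F3 and -0.25 with AJUBA. Between POU2F3 and AJUBA r was 0.41 over the 16 samples and 0.73 over the line means. Ajuba OE had the highest mean of both genes, and POU2F3 had only 4 to 21 counts per sample. These are descriptions without a p, since the samples come from 6 lines and COLCA1 was chosen for its pattern. COLCA1 was lowest in shAjuba2, where AJUBA was between its levels in shAjuba1 and shScrambled, and its ranges overlapped in Control and Ajuba OE, where AJUBA was at 93.2 and 525.9 RPM.

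**Figure D3:**
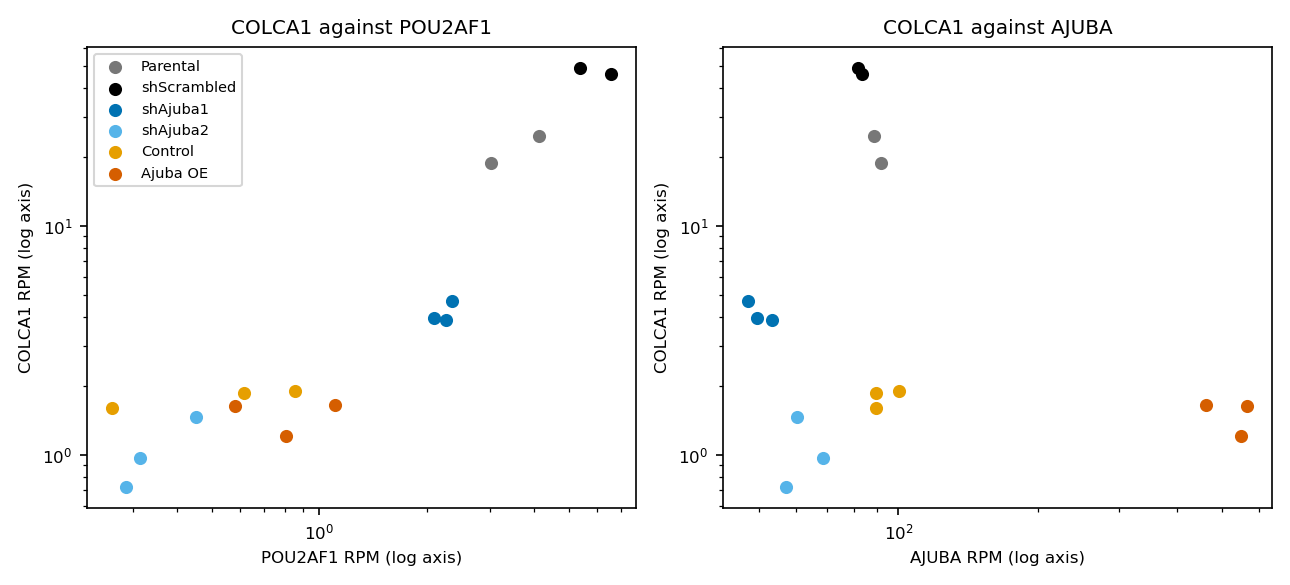
COLCA1 RPM against POU2AF1 RPM (left) and against AJUBA RPM (right) in the 16 samples, 1 dot each, coloured by line, on log axes. COLCA1 and POU2AF1 were high together in shScrambled and Parental (r = 0.92 of log2 RPM), whereas the AJUBA axis put Parental and Control side by side at 90.2 and 93.2 RPM with COLCA1 at 21.8 and 1.79 RPM.

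Of 14581 genes with a symbol and a mean of at least 1 RPM, the 5 with log2 CPM most like that of COLCA1 over the 16 samples were ROBO1 (r = 0.95), TMPRSS2 (0.93), DPEP1 (0.93), POU2AF1 (0.92) and MMP24 (0.92), and 9 genes had an r of at least 0.9. ROBO1, a receptor for Slit ligands on chromosome 3, was at 21.1 RPM in shScrambled and 15.3 in Parental. It was at 9.30 RPM in shAjuba1 and 2.86 in shAjuba2, and Control had 3.24 and Ajuba OE 4.35 RPM. TMPRSS2, a transmembrane serine protease on chromosome 21, was at 6.08, 4.22, 2.98, 1.18, 2.07 and 1.19 RPM in the same order of lines. DPEP1, a membrane dipeptidase on chromosome 16, was at 8.13, 7.44, 3.34, 1.09, 0.971 and 1.77 RPM, and MMP24, a membrane-type matrix metalloproteinase on chromosome 20, was at 15.98, 10.7, 9.10, 6.85, 8.22 and 6.09 RPM. All 5 were highest in shScrambled and second in Parental, as COLCA1 was, an order favoured by their choice for likeness to it. POU2AF1 was the 1 gene of the 5 on chromosome 11. The names depended on the measure. By Pearson r of the line means 0 of these 5 were among the first 5, and by Spearman's rho 2 were.

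The wider tuft cell programme was read from 45 genes known for tuft cells, of which 2 had no count and 20 had a mean of at least 1 RPM. The most abundant were DCLK1, a kinase used as a tuft cell marker, the calcium channel ITPR3 and the transcription factor SOX9, genes that other epithelial and tumour cells also express. TRPM5, the cation channel of taste and tuft cells, was at 0.346 to 0.651 RPM by line, and GFI1B, a tuft cell transcription factor, was at 0.0502 RPM or less.

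**Figure D4:**
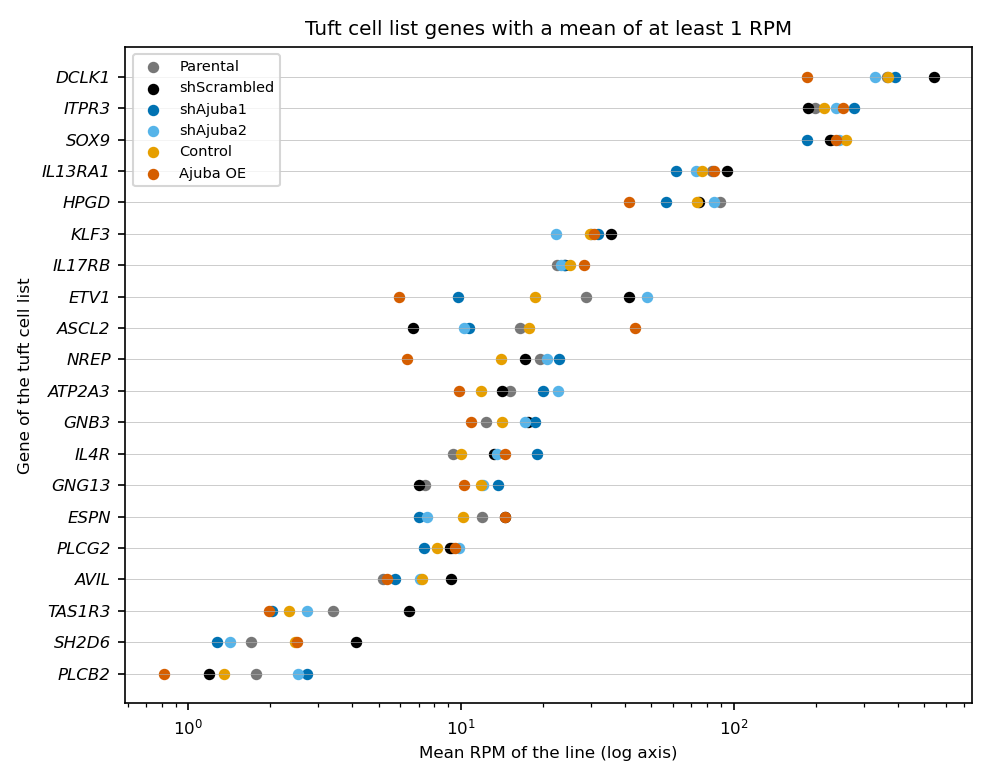
Mean RPM of each line (dots coloured by line, log axis) for the 20 genes of the tuft cell list with a mean of at least 1 RPM over all samples. DCLK1 reached 541 RPM in shScrambled, and the lines differed most for ETV1, from 5.95 RPM in Ajuba OE to 48.2 RPM in shAjuba2, and for ASCL2, from 6.69 to 43.5 RPM.

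In shAjuba1 against shScrambled 27 genes of the list were tested, of which 7 were called higher and 14 lower (18.2% and 20.2% of all genes tested), with a median log2 fold change of -0.42 beside -0.01 over all genes. KIT, the receptor of stem cell factor, and MATK, a Csk-type kinase, were among the 14 but passed the count filter only through shScrambled, where they were high, so no p is given for them. KIT was at 0.725 RPM in shScrambled and 0.110 RPM in shAjuba1, a log2 fold change of -2.59 (SE 0.453) that was -3.56 without replicate 1 of shAjuba1. ETV1, an ETS factor, fell by 2.10 (SE 0.0997, adjusted p = 1.76e-08 by edgeR), from 41.4 to 9.73 RPM. The tuft marker SH2D6 fell by 1.71 (SE 0.173, adjusted p = 8.41e-06 by edgeR), and TAS1R3, a subunit of sweet and umami taste receptors, fell by 1.67 (SE 0.159, adjusted p = 5.09e-06 by edgeR). PLCB2 rose by 1.17 (SE 0.173, adjusted p = 1.89e-04 by edgeR) and GNG13 by 0.94 (SE 0.173, adjusted p = 9.71e-04 by edgeR). The other genes called higher were ASCL2, ATP2A3, ITPR3, NREP and IL4R, the interleukin 4 receptor chain.

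In shAjuba2 against shScrambled 28 were tested, of which 2 were called higher and 7, KIT among them, lower (3.19% and 4.44% of all genes tested), with a median of -0.09 beside -0.01 over all genes. KIT, at 0.0868 RPM, had a log2 fold change of -3.10 (SE 0.402), and it passed the filter only through shScrambled here too. ALOX5AP, the activating protein of leukotriene synthesis, fell by 1.77 (SE 0.240, adjusted p = 0.00679 by edgeR), from 1.60 to 0.487 RPM. SH2D6 fell by 1.59 (SE 0.213, adjusted p = 0.00661 by edgeR), and TAS1R3 fell by 1.29 (SE 0.266, adjusted p = 0.0299 by edgeR). The 2 genes called higher were PLCB2, by 1.04 (SE 0.193, adjusted p = 0.0212 by edgeR), and ATP2A3, by 0.63 (SE 0.137, adjusted p = 0.0347 by edgeR). The calls of ALOX5AP and SH2D6 were lost without replicate 2 of shScrambled. That of TAS1R3 was lost without replicate 1 or 2 of shScrambled and without replicate 1 or 3 of shAjuba2. The count of 9 genes called was 4 and 14 without replicate 1 and 2 of shAjuba2. Of all genes tested, 492 of 21993 and 4983 of 21969 were called in these fits, beside 1713 of 22446 in the main fit. The count of list genes was also lower without either shScrambled sample, fits that leave 1 sample in that line.

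In Parental against shScrambled, a comparison without any change of AJUBA by construct, 2 of 27 tuft list genes rose and 12 fell (15.6% and 15.0% of all genes tested), with a median of -0.26 beside -0.03 over all genes. SH2D6 fell by 1.28 (SE 0.183, adjusted p = 1.06e-05 by edgeR), ALOX5AP by 1.40 (SE 0.262, adjusted p = 2.50e-04 by edgeR) and PTGS1, the cyclooxygenase COX-1, by 1.68 (SE 0.270, adjusted p = 4.65e-05 by edgeR). ASCL2, a factor of intestinal stem cells, rose by 1.30 (SE 0.112, adjusted p = 4.54e-09 by edgeR), from 6.69 to 16.4 RPM. With all 16 samples in the fit 5 genes of the list were called, beside 1777 of 21289 genes tested. The comparisons against shScrambled share its 2 samples, so their values stand side by side and are not independent.

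In Ajuba OE against Control 3 of 27 rose and 3 fell (2.39% and 3.03% of all genes tested), with a median of -0.14 beside -0.01 over all genes. ETV1 fell by 1.60 (SE 0.124, adjusted p = 6.05e-04 by edgeR), from 18.8 to 5.95 RPM. NREP, a neuronal regeneration protein gene, fell by 1.08 (SE 0.103, adjusted p = 0.00127 by edgeR), and DCLK1 fell by 0.93 (SE 0.171, adjusted p = 0.0228 by edgeR), from 369 to 186 RPM. The call of DCLK1 was lost without replicate 1 or 3 of either line. ASCL2 rose by 1.35 (SE 0.122, adjusted p = 0.00109 by edgeR), from 17.8 to 43.5 RPM. Without replicate 1 or 3 of either line 3 genes of the list were called, beside 412 to 593 of all genes tested. In Control against Parental, where 0.0508% of all genes tested rose and 0.319% fell, 0 of 28 genes of the list passed edgeR's threshold, with 7 at an unadjusted p under 0.05 and 1 called by DESeq2. Without replicate 2 of Control 4 passed, beside 985 of 20838 genes tested.

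The knockdown lines differed from each other in 4 of 27 tuft list genes, 2 higher and 2 lower in shAjuba1 (9.47% and 10.1% of all genes tested). ETV1 was lower in shAjuba1 by 2.26 on the log2 scale (adjusted p = 2.44e-05 by edgeR), at 9.73 against 48.2 RPM. KLF3, a Krüppel-like repressor, was higher by 0.56 (SE 0.113, adjusted p = 0.00782 by edgeR), and IL4R was higher by 0.53 (SE 0.135, adjusted p = 0.0233 by edgeR). PTGS1 was lower in shAjuba1, at -0.74 (SE 0.227, adjusted p = 0.0474 by edgeR). The calls of IL4R and PTGS1 were each lost in 5 of the 6 fits that left out a sample and with the replicate block. Without replicate 2 of shAjuba2 9 genes of the list were called, beside 5961 of 22142 genes tested.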

How the data were processed

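RNA-seq of 16 samples from 6 SW480 lines was used, grouped by line as the labels give them. The authors aligned paired reads of stranded mRNA libraries to hg38 with HISAT2, counted them on exons per gene identifier with featureCounts and deposited raw counts. Tool versions, the strand option and the annotation release are not given in the sources used here. Symbols, positions and exon lengths came from GENCODE release 44, in which 56434 of the 66023 identifiers were found.

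RPM is the count divided by the sample total and scaled by 1000000. The 2 lines of a comparison were fitted alone in R 4.3.3 with edgeR 4.0.16 (filterByExpr by line, TMM, quasi-likelihood test, two-sided, Benjamini-Hochberg adjustment over all genes tested, threshold 0.05). The SE is the value for which the squared ratio of log2 fold change to SE equals F. The fits were tested on simulated counts. A gene that only its higher line carried through the filter was given no p. Alternatives were other size factors, every gene with at least 1 count, DESeq2 1.42.0, all 16 samples, a replicate block and leaving out each sample. Likeness used log2 CPM with a prior count of 2, and correlations among the genes used an offset of 0.5 counts.

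Totals were 30132396 to 69684675 counts per sample, and intervals from counting were not needed. Genes named are the 4 members, AJUBA, the octamer factors, up to 4 called genes of the largest change per list and comparison, expressed neighbours and the 5 genes most like COLCA1. ITPR3, SOX9, MATK, TRPM5, GFI1B, ALG9, PLCB2, GNG13, ATP2A3 and the markers were named outside that rule, after their values were seen. The members and lists were chosen with earlier results of these data known. RefSeq start windows came from GRCh38.p14 tables. Figures were drawn with Python 3.11.15 and matplotlib 3.10.9.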

Additional observations from a re-analysis of the deposited data

Results flagged for a closer look

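The 2 knockdown lines, which carry shRNAs against the same gene, differed in 8 of the named genes by edgeR's quasi-likelihood test of the difference itself. On the log2 scale, shAjuba1 minus shAjuba2, it was 2.71 for POU2AF1, 1.56 for POU2AF3, 1.03 for PPP2R1B, 0.59 for SIK2, 0.56 for KLF3 and 0.53 for IL4R. It was -2.26 for ETV1 and -0.74 for PTGS1. Of all genes tested in that comparison 19.6% were called. The naming rule took called genes from this same comparison, and KLF3 and IL4R were named by it alone. The count of 8 was thus partly set by that rule and cannot be compared with this share. POU2AF3 was above shScrambled in every shAjuba1 sample and below it in every shAjuba2 sample, whereas POU2AF1 was below it in all 6 knockdown samples.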

How the results depend on the processing

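The log2 fold change of COLCA1 kept its direction in all alternatives of all 6 comparisons. It stayed between -3.60 and -3.47 in shAjuba1 and between -5.83 and -5.32 in shAjuba2 against shScrambled, and between -3.77 and -3.42 in Control against Parental. Low counts limited POU2AF2 and POU2F3, and n = 2 in Parental and shScrambled limited every comparison with them. A lone sample left in a line was assumed to vary like the other line. The causes of the changes below were not tested. Directions reversed in fits that left out 1 sample. Without replicate 1 of shScrambled this held for POU2F3 in shAjuba1 (-0.33, range over such fits up to 0.84) and, in Parental against shScrambled, for POU2AF3 (-0.084, up to 0.21) and POU2F3 (-0.078, up to 1.102). POU2F3 also reversed there without replicate 2 of Parental (-0.091), and in Control against Parental without replicate 1 of Parental (-0.25) or of Control (-0.38, up to 0.45). AJUBA reversed in Control against Parental without replicate 2 of Control (-0.012, up to 0.083).

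With 1 sample left out, genes called numbered 4711 to 9695 in shAjuba1, 182 to 4983 in shAjuba2, 412 to 988 in Ajuba OE, 14 to 985 in Control against Parental, 3010 to 5369 in Parental against shScrambled and 2177 to 5961 between the knockdown lines. Tuft list genes called then numbered 0 to 14 in shAjuba2, 3 to 5 in Ajuba OE, 0 to 4 in Control against Parental and 2 to 9 between the knockdown lines. Locus genes called numbered 2 to 4 in shAjuba1, 1 to 2 in shAjuba2, 0 to 1 in Ajuba OE, 0 to 1 in Control against Parental and 1 to 2 in Parental against shScrambled. Counts of list genes in this section include any gene that only its higher line carried through the filter, such as BTG4. With every gene of at least 1 count, 3210 genes were called in shAjuba2 and 1947 in Control against Parental, with 3 tuft list genes in the latter. In Ajuba OE 1327 genes and 2 locus genes were called in that way. DESeq2 called 1763 genes and 2 locus genes in Ajuba OE, 567 genes and 1 tuft list gene in Control against Parental, and 4595 genes and 1 locus gene in Parental against shScrambled. All 16 samples in the fit gave 3730 genes in shAjuba2, 2269 with 2 locus genes in Ajuba OE, 543 with 2 tuft list genes in Control against Parental, and 1777 with 5 tuft list genes and 1 locus gene in Parental against shScrambled. Of the 5 genes most like COLCA1, 0 remained by line means and 2 by Spearman's rho.

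The numbers were not taken to pair the samples. The correlation of the deviations of same-numbered replicates from their line means was checked only between lines that were compared. It was between -0.13 and 0.19 except for replicate 2 of Ajuba OE and Control (0.50). Replicate 2 of shAjuba2 was not checked against that of Control or Ajuba OE, so a shift shared by these lines was not tested. With the replicate block, 5377 genes were called in shAjuba2, 5139 in Ajuba OE with 11 tuft list genes and 3 locus genes, 318 in Control against Parental, and 2937 with 2 tuft list genes between the knockdown lines.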
